A study of Mus musculus with 62 samples.

Results

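The 9 genes described here encode transcription factors that are used as regulators and markers of striatal neurons, namely Foxp1, Foxp2, Bcl11b, Meis2, Isl1, Rarb, Ebf1, Six3 and Zfp503. They were chosen by symbol through their Ensembl identifiers, and all 9 were found among the 11121 genes of the count table. Each library was made from the prefrontal cortex (PFC) or the nucleus accumbens (NAc), the ventral striatum, of 1 mouse by BRB-seq, in which barcoded 3′ ends of polyadenylated RNA are sequenced in a pool. The 4 groups were PFC CTR (n = 15), PFC mCRS (n = 15), NAc CTR (n = 16) and NAc mCRS (n = 16). Both regions were taken from the same sets of animals, so a PFC and a NAc library can come from 1 mouse. All were wild-type C57BL/6j animals of 15 weeks. The mCRS mice went through multimodal chronic restraint stress, repeated daily restraint of varied kinds over several weeks, and the CTR mice were left unstressed, and the tissue was taken some days after the last session. Because whole tissue was used, fewer cells of a type and less RNA per cell cannot be told apart in any value below.

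Striatal projection neurons are GABAergic cells that arise in the lateral ganglionic eminence of the embryo. Factors such as MEIS2, SIX3 and ISL1 act while these neurons are born and become direct or indirect pathway cells, BCL11B (CTIP2) and FOXP1 act as they differentiate, and several of them stay on in the adult striatum. Some are also used by deep-layer cortical neurons, among them FOXP1, FOXP2 and BCL11B, so that a cortical sample is not free of them.

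The labelled tissues were first read against their markers. The summed level of 20 striatal projection neuron markers (Drd1, Ppp1r1b, Penk and others) lay between 908 and 2447 CPM (counts of a gene scaled to a common library total) in PFC CTR and between 897 and 2306 CPM in PFC mCRS. It lay between 4824 and 11119 CPM in NAc mCRS. In NAc CTR, 15 of 16 libraries had 5958 CPM or more, and the library labelled NAc CTR 7 had 1288 CPM. That library held 1 count of Drd1 and 0 counts of Gpr6, together with 3579 counts of Oxt and 2249 of Avp, and its summed level of 6 hypothalamus markers was 2788 CPM against 841 CPM in the next highest NAc CTR library. NAc mCRS 10 held 21591 CPM of 2 choroid plexus markers, against at most 108 CPM in the other NAc mCRS libraries. Tests between regions and of mCRS in the NAc were therefore also run without these libraries, and the values are given beside the results. Total counts per library ran from 945286 to 4857359.

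Six3, a homeobox repressor required for the indirect pathway neurons, had the largest fitted difference of the 9 genes in CTR mice. Its lowest, median and highest levels were 53.2, 122 and 276 CPM in NAc CTR and 47.0, 108 and 266 CPM in NAc mCRS. The corresponding levels were 0, 0.588 and 28.6 CPM in PFC CTR and 0, 1.88 and 57.3 CPM in PFC mCRS. Every NAc CTR library thus lay above every PFC CTR library, and in the mCRS mice 14 of 16 NAc libraries did so. Its log2 fold change, NAc over PFC, was 4.87 ± 0.62 (SE) in CTR mice, with an adjusted p of 3.12e-08 in edgeR's quasi-likelihood test. In mCRS mice it was 3.53 ± 0.61, with an adjusted p of 2.56e-05 in edgeR. Without the highest PFC library (PFC CTR 2 or PFC mCRS 13) the values were 5.54 and 4.10. These were the highest of all fits that left out 1 library. The lowest were 4.75 (without NAc CTR 1) and 3.42 (without NAc mCRS 7). A complete separation of the regions was rare: 12 of 9932 genes showed it in CTR mice (0.121%) and 12 of 9452 in mCRS mice (0.127%), and Six3 in CTR mice was its 1 instance among the 9 genes.

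Zfp503 (NOLZ1), a zinc finger repressor of the striatal anlage, and Isl1, a LIM-homeodomain factor of direct pathway and cholinergic neurons, were close to absent in the PFC. Zfp503 had a median of 58.5 CPM in NAc CTR, with a range of 0 to 178, and a median of 44.5 CPM in NAc mCRS, with a range of 0 to 124. In the PFC its median was 0 CPM in both groups, with a highest value of 54.7 CPM in CTR and of 46.8 CPM in mCRS. One library, PFC CTR 4, gave 184 of the 217 Zfp503 counts of its group, and PFC mCRS 11 gave 68 of the 95 counts of the other. The difference was 3.75 ± 0.87 on the log2 scale in CTR mice (edgeR adjusted p 0.00244) and 3.42 ± 0.98 in mCRS mice (edgeR adjusted p 0.0199). Without PFC CTR 4 the first became 6.21, and without PFC mCRS 11 the second became 5.35. These were the highest of all fits that left out 1 library. The lowest were 3.50 (without NAc CTR 1) and 3.25 (without NAc mCRS 6). The adjusted p in edgeR reached at most 0.00794 in CTR mice and 0.0373 in mCRS mice.

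Isl1 ranged from 0.524 to 128 CPM in NAc CTR, with a median of 30.1, and from 0 to 121 CPM in NAc mCRS, with a median of 17.5. Its PFC medians were 0 CPM, with highest values of 17.7 CPM in PFC CTR 3 and 7.10 CPM in PFC mCRS 4. Those libraries held 54 of 83 and 28 of 35 Isl1 counts in their groups. Isl1 was 4.50 ± 0.95 higher in the NAc of CTR mice on the log2 scale (edgeR adjusted p 0.000725), and 5.96 without PFC CTR 3. That was the highest of all fits that left out 1 library, and the lowest was 4.25, without NAc CTR 1. In mCRS mice it had too few counts to pass the filter of the test, with 10 or more counts in 11 of 16 NAc libraries and 1 of 15 PFC libraries. The regions overlapped for both genes. For Isl1, 11 of 16 NAc libraries lay above the highest PFC library in CTR mice and 11 of 16 in mCRS mice, and for Zfp503 9 of 16 and 7 of 16 did.

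The promoters of Six3 and Zfp503 are shown because both genes were higher in the NAc in either group of mice and their windows hold no annotated exon of their own. Each runs over the 250 bases before the start of transcription, taken from RefSeq (GRCm38.p6) and written 5′ to 3′ on the strand of the gene. Six3 lies on the plus strand at chr17:85620584-85620833, where an exon of the antisense RNA Gm28528 is annotated, and Zfp503 on the minus strand at chr14:21989602-21989851. Capitals mark TGACAG, the core of the motif bound by MEIS proteins. The last line holds the direct-repeat retinoic acid response element of Rarb, with its half-sites in capitals, at chr14:16575513-16575529 on the minus strand.
Six3: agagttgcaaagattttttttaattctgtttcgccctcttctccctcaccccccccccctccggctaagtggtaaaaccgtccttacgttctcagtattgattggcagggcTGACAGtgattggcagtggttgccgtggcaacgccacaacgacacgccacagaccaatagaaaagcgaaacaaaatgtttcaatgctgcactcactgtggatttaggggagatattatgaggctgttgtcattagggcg
Zfp503: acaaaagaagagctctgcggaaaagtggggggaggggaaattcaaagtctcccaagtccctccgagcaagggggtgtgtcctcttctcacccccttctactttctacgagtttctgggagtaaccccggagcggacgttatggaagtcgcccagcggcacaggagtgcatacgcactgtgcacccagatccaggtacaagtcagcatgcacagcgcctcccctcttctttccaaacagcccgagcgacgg
Rarb element: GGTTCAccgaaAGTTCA
Entries were found for 8 of the 9 genes, in 11 windows, and none for Foxp2. Of all 32851 RefSeq windows of this length, 15.9% held TGACAG on either strand and 2 (0.00609%) held both half-sites of the Rarb element at the same spacing. Besides Six3, 1 of the 3 windows of Foxp1 held TGACAG, on the reverse strand. The forkhead motif TGTTTAC, found in 3.17% of all windows, was in none of the 11. These are matches of letters only.

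**Figure D1:**
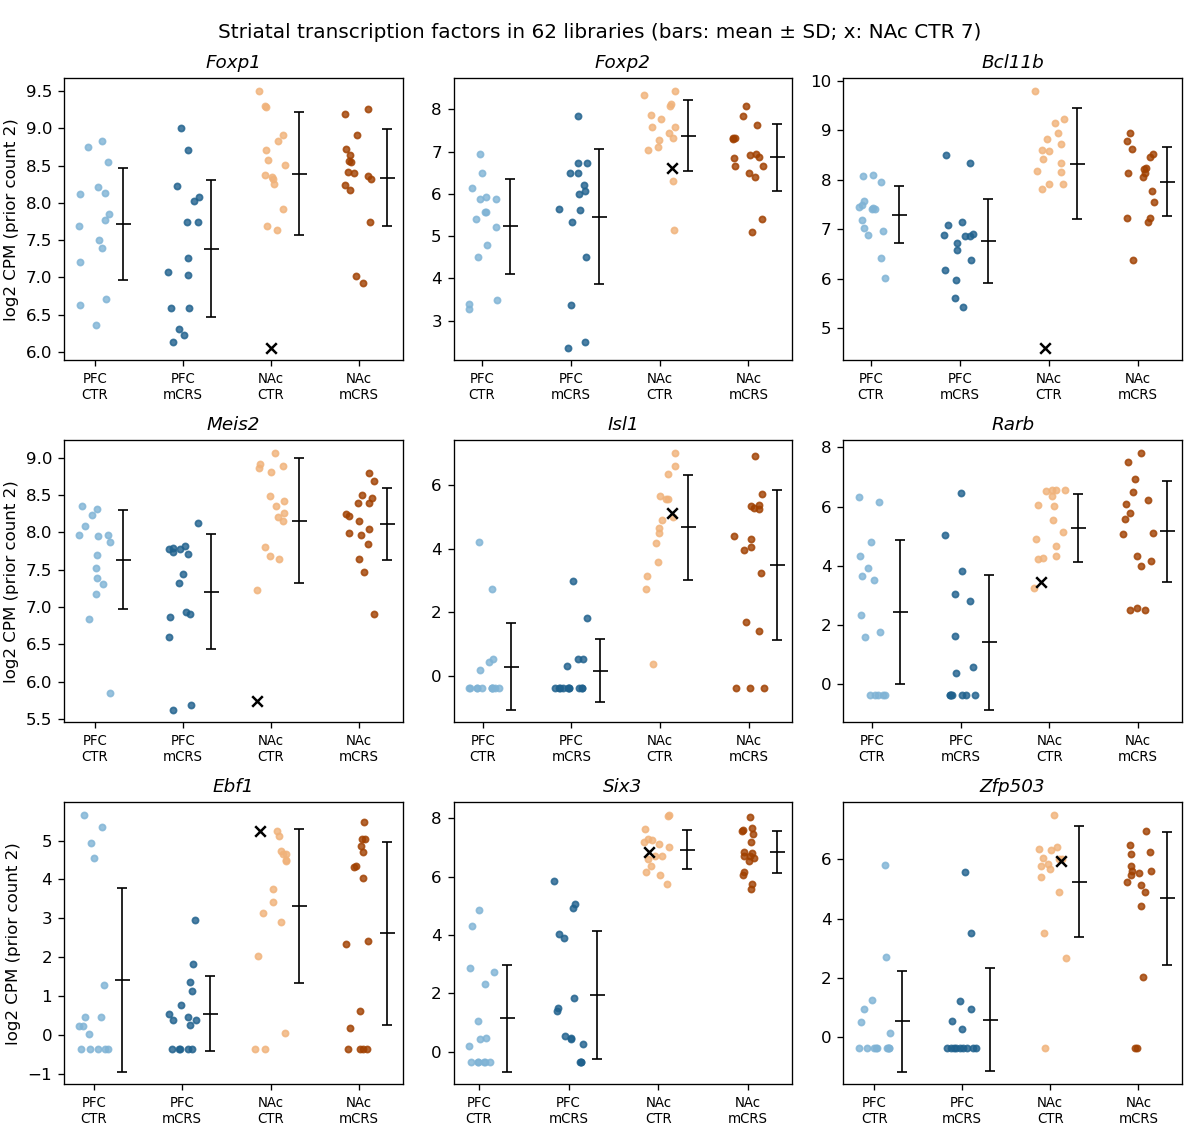
Level of each gene in each library, in log2 CPM with a prior count of 2, by group, with the mean and SD beside the points and NAc CTR 7 drawn as a cross. Six3, Isl1 and Zfp503 sit near the floor in most PFC libraries, whereas Foxp1, Bcl11b and Meis2 are well above it in all 62 libraries.

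Foxp2, Bcl11b, Foxp1 and Meis2 were counted in all 62 libraries and were higher in the NAc by smaller factors. Foxp2, a forkhead repressor known from vocal learning circuits, had a median of 182 CPM in NAc CTR (range 34.7 to 344) and of 46.7 CPM in PFC CTR (8.95 to 122). In mCRS mice its medians were 119 CPM in the NAc (33.3 to 271) and 63.4 CPM in the PFC (4.35 to 227). The NAc and PFC ranges overlapped in both groups, with 13 of 16 NAc CTR libraries and 2 of 16 NAc mCRS libraries above the highest PFC library. The difference was 2.0 ± 0.32 on the log2 scale in CTR mice (edgeR adjusted p 5.92e-06) and 0.93 ± 0.38 in mCRS mice (edgeR adjusted p 0.169). Without PFC mCRS 13, the highest PFC library, the latter was 1.25 with an adjusted p of 0.0315 in edgeR. In the 31 fits that left out 1 library, the Foxp2 difference in mCRS mice ran from 0.84 to 1.25. It passed in that 1 fit only, and the adjusted p in edgeR reached 0.267. Whether the regional difference itself changed with mCRS was tested as an interaction, given below.

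Bcl11b, a zinc finger repressor needed for projection neuron differentiation, had a median of 363 CPM in NAc CTR (23.6 to 883) and 170 CPM in PFC CTR (64.2 to 273). In mCRS mice the medians were 280 CPM in the NAc (81.8 to 492) and 115 CPM in the PFC (41.9 to 362). Its log2 fold change was 1.21 ± 0.24 in CTR mice (edgeR adjusted p 0.000274) and 1.06 ± 0.26 in mCRS mice (edgeR adjusted p 0.0042). The lowest NAc CTR value came from NAc CTR 7, below every PFC CTR library.

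Foxp1, the forkhead partner of FOXP2 with which it can form dimers, had a median of 346 CPM in NAc CTR (65.8 to 723) and 217 CPM in PFC CTR (81.8 to 455). In mCRS mice the medians were 339 CPM in the NAc (120 to 611) and 153 CPM in the PFC (69.2 to 511). Its log2 fold change was 0.69 ± 0.23 in CTR mice, which missed the threshold of 0.05 (edgeR adjusted p 0.0615), and 0.78 ± 0.24 in mCRS mice (edgeR adjusted p 0.0391). Meis2, a TALE-homeodomain factor that binds DNA with PBX proteins, had a median of 317 CPM in NAc CTR (52.8 to 532) and 233 CPM in PFC CTR (57.0 to 325). Its mCRS medians were 290 CPM in the NAc (119 to 442) and 173 CPM in the PFC (48.6 to 277). Meis2 differed by 0.58 ± 0.22 in CTR mice (edgeR adjusted p 0.116) and by 0.78 ± 0.22 in mCRS mice (edgeR adjusted p 0.0141), both on the log2 scale. Without NAc CTR 7 the CTR difference was 0.77 for Foxp1 (edgeR adjusted p 0.0151) and 0.66 for Meis2 (edgeR adjusted p 0.0277), so that both passed. Foxp1 in CTR mice also passed without PFC CTR 2, 6 or 15 or NAc CTR 1 or 2 (edgeR adjusted p between 0.0246 and 0.0497) and with RLE or upper quartile normalization (0.0405 each in edgeR) or DESeq2 (0.0373). In mCRS mice its call was lost in 14 of the 31 fits that left out 1 library, with an adjusted p in edgeR between 0.00603 and 0.0841 over all of them. The NAc and PFC ranges overlapped for both genes, with 4 of 16 NAc CTR and 2 of 16 NAc mCRS libraries above the highest PFC library for Foxp1, and 8 and 9 of 16 for Meis2.

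Rarb and Ebf1 were less regular. Rarb, a nuclear receptor for retinoic acid, had a median of 40.4 CPM in NAc CTR (8.67 to 93.7) and 4.27 CPM in PFC CTR (0 to 79.8). In mCRS mice the medians were 40.1 CPM in the NAc (4.87 to 223) and 0.507 CPM in the PFC (0 to 87.5). It was 1.61 ± 0.71 higher on the log2 scale in the NAc of CTR mice (edgeR adjusted p 0.221) and 2.60 ± 0.84 higher in mCRS mice (edgeR adjusted p 0.0475). The latter passed narrowly: leaving out 1 library moved its adjusted p in edgeR between 0.00223 and 0.129, and it failed in 22 of 31 such fits. PFC mCRS 8 held 67.4% of the Rarb counts of its group, and the difference without that library was 3.79. That was the highest of these fits, and the lowest was 2.32, without NAc mCRS 11.

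Ebf1, a helix-loop-helix factor of direct pathway neurons that is also used by mural and B cells, had medians of 17.2 CPM in NAc CTR (0 to 37.4) and 0.397 CPM in PFC CTR (0 to 49.5). Its mCRS medians were 10.1 CPM in the NAc (0 to 44.0) and 0.537 CPM in the PFC (0 to 6.97). In PFC CTR, 343 of the 352 Ebf1 counts came from 4 libraries, while 12 of 16 NAc CTR libraries held 10 counts or more. The difference in CTR mice was 0.78 ± 0.95 on the log2 scale (edgeR adjusted p 0.846), and in mCRS mice the gene failed the filter. Duplicate reads could not be told from separate molecules, and counts that sit in a few libraries were not examined further.

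Counted over all 9 genes, 5 were higher in the NAc of CTR mice at an adjusted p below 0.05, namely Six3, Foxp2, Bcl11b, Isl1 and Zfp503. Of the 9932 genes tested, 6.32% passed in either direction and 2.09% were higher in the NAc. In mCRS mice 7 of the 9 genes could be tested and 6 were higher, namely Six3, Bcl11b, Meis2, Zfp503, Foxp1 and Rarb, where 6.5% of the 9452 genes tested passed and 2.01% were higher in the NAc. None of the 9 was lower. With libraries numbered 9 and above only, none of the 6 mCRS calls passed, although the log2 fold changes were still above 0, at 2.82 for Six3 (edgeR adjusted p 0.0638), 3.58 for Rarb, 2.18 for Zfp503, 0.90 for Meis2, 0.79 for Foxp1 and 0.78 for Bcl11b. With numbers 1 to 8, Six3 (4.43), Zfp503 (7.73) and Bcl11b (1.46) passed. Without NAc CTR 7 the CTR count was 7 (background 2.24%), and the other log2 fold changes were 4.88 for Six3, 4.52 for Isl1, 3.74 for Zfp503, 2.05 for Foxp2, 1.68 for Rarb, 1.30 for Bcl11b and 0.66 for Ebf1. Without NAc mCRS 10 the mCRS count was also 6 (background 1.92%), with 3.59 for Six3, 3.52 for Zfp503, 2.64 for Rarb, 1.05 for Bcl11b, 0.95 for Foxp2, 0.84 for Meis2 and 0.78 for Foxp1. The median log2 fold change of the 9 genes in CTR mice was 1.61, against 0.02 over all genes tested. Taken group by group, Rarb, Six3, Isl1 and Zfp503 met the filter on low counts in NAc CTR and not in PFC CTR. Six3, Rarb and Foxp2 met it in NAc mCRS and not in PFC mCRS. Zfp503 met it in neither mCRS group by itself, with 10 or more counts in 14 of 16 NAc and 2 of 15 PFC libraries. The counts of genes called in CTR and in mCRS mice are thus both biased towards the NAc.

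When the regional difference was averaged over both treatments in 1 fit of all 62 libraries, a choice made after seeing the data, all 9 genes were higher in the NAc (edgeR adjusted p between 1.89e-12 for Six3 and 0.0334 for Ebf1). The averaged log2 fold change was 4.69 ± 0.74 for Isl1, 4.22 ± 0.46 for Six3 and 3.59 ± 0.68 for Zfp503. It was 2.20 ± 0.73 for Ebf1, 2.12 ± 0.56 for Rarb and 1.49 ± 0.25 for Foxp2, then 1.15 ± 0.18 for Bcl11b, 0.75 ± 0.18 for Foxp1 and 0.70 ± 0.16 for Meis2. In this fit 4.65% of 11025 genes were higher in the NAc. Without NAc CTR 7 and NAc mCRS 10 it called all 9 genes, against a background of 4.46%. Isl1, Rarb, Six3 and Zfp503 met the filter on low counts in a NAc group and in neither PFC group. Ebf1 met it in no group by itself. These counts are therefore also biased towards the NAc.

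**Figure D2:**
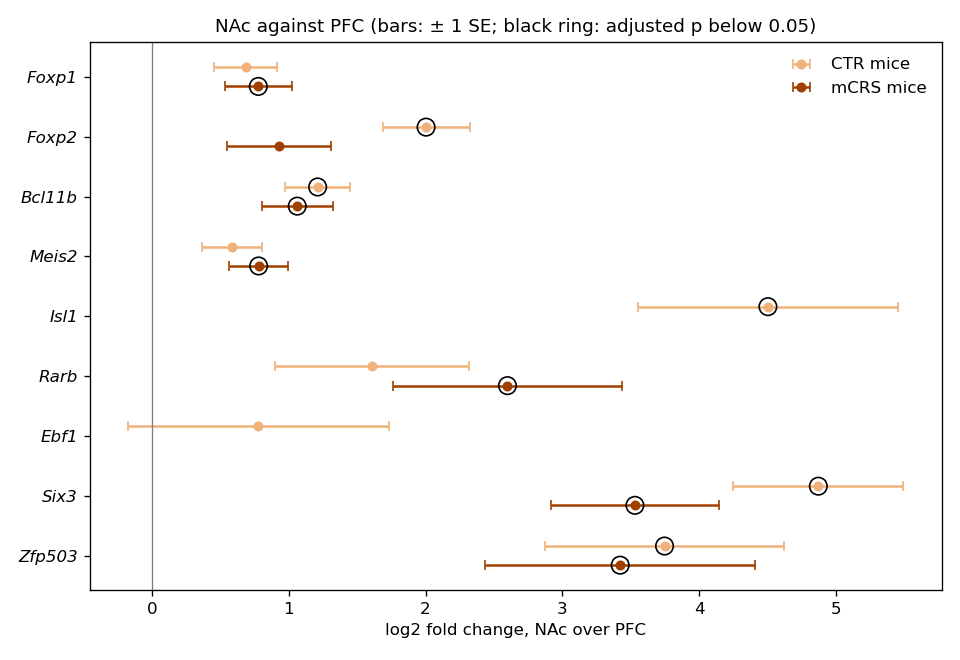
Log2 fold change of the NAc over the PFC for each gene in CTR and in mCRS mice, with bars of 1 SE and black rings where the adjusted p was below 0.05. Every fitted value is above 0, from 0.58 for Meis2 to 4.87 for Six3, both in CTR mice, and Isl1 and Ebf1 have no mCRS value because they failed the filter.

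The relatives and partners of these factors were read against the 6.32% of all genes called in CTR mice. Of 15 family relatives 5 could be tested in CTR mice, and 1 was higher in the NAc: Meis1, the close relative of Meis2, by 5.06 ± 1.07 on the log2 scale (edgeR adjusted p 0.000722). Meis3 (0.85), Zfp703 (-0.54) and Bcl11a (0.16), the relatives of Meis2, Zfp503 and Bcl11b, did not pass. Among 26 binding partners and corepressors tested 3 passed. Pbx3, a TALE partner of MEIS proteins, was 3.44 ± 0.75 higher in the NAc (edgeR adjusted p 0.00109). The LIM cofactors Ldb2 and Lmo4 were lower there, with log2 fold changes of -2.10 ± 0.33 and -1.50 ± 0.16 (edgeR adjusted p 5.02e-06 and 9.47e-11). The median of the list was 0.05. Of 13 other ventral forebrain factors tested 2 passed: Sox11 was higher (1.56 ± 0.44, edgeR adjusted p 0.0167) and Mef2c lower (-2.10 ± 0.17, edgeR adjusted p 2.67e-14), and Zic1 (2.18) and Dlx6 (2.05) did not pass. In mCRS mice, where 6.5% of all genes were called, 0 of 4 relatives, 4 of 27 partners and 2 of 12 ventral forebrain factors passed. Pbx3, Ldb2, Lmo4 and Mef2c passed again in the same direction, Tshz1 was higher (2.17, edgeR adjusted p 0.0109) and the corepressor subunit gene Rbbp4 lower (-1.02, edgeR adjusted p 0.026), Sox11 did not pass (0.86), and Meis1 failed the filter. Leaving out NAc CTR 7 or NAc mCRS 10 gave the same counts for these lists in both treatments.

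By contrast, transcription factors of cortical excitatory neurons were mostly lower in the NAc. In CTR mice 8 of 17 tested were lower, 1 was higher and the median was -1.90 on the log2 scale. Tbr1, which specifies corticothalamic neurons, fell by 5.33, Neurod2 by 4.80 and Id2 by 1.28. In mCRS mice 6 of 14 tested were lower and the median was -1.36. The striatal markers went the other way, with 19 of 20 higher in CTR mice and 20 of 20 in mCRS mice, and in CTR mice the smallest p-values belonged to the neuropeptide genes Tac1 (3.05) and Penk (2.97) and the cyclase gene Adcy5 (1.99). All 20 passed in CTR mice without NAc CTR 7. Direct pathway genes were higher in 3 of 5 and indirect pathway genes in 4 of 5 tested in CTR mice. Without NAc CTR 7 each list had 4 of 5. In mCRS mice 4 of 5 direct and 4 of 6 indirect pathway genes were higher. Most genes of these 2 lists are also among the 20 striatal markers.

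Markers of other cell types also differed between the dissections. In CTR mice 6 of 10 oligodendrocyte markers were higher in the NAc, and both cholinergic markers tested were, Slc5a7 by 4.72 and Ache by 1.70 on the log2 scale. The 4 hypothalamus markers tested were all higher, Avp by 6.98, Oxt by 6.69, Trh by 4.72 and Cartpt by 4.62 on the log2 scale; without NAc CTR 7, Avp and Trh failed the filter and Oxt (5.78) and Cartpt (4.62) passed. The summed level of all 6 hypothalamus markers counted ran from 114 to 2788 CPM in NAc CTR and from 161 to 1001 CPM in NAc mCRS. It ran from 0 to 46.5 CPM in PFC CTR and from 0 to 148 CPM in PFC mCRS. Of 10 GABAergic interneuron markers 3 were higher (Gad2 and Gad1 among them) and 2 lower (Vip among them), 9 of 12 cortical excitatory neuron markers were lower (Cck, Slc17a7 and Tbr1 with the smallest p-values), and 1 of 9 astrocyte markers (Aldoc) was higher, which did not pass without NAc CTR 7. No microglia marker of 9, vascular or mural marker of 6 or choroid plexus marker of 2 passed in CTR mice. The part of these cells in the levels of the 9 genes was not tested.

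mCRS changed none of the 9 genes past the threshold in either region. In the PFC 4 of the 9 passed the filter, with log2 fold changes, mCRS over CTR, of 0.53 ± 0.48 for Foxp2, -0.21 ± 0.27 for Foxp1, -0.35 ± 0.27 for Bcl11b and -0.36 ± 0.24 for Meis2. Each 95% interval included 0, and that of Foxp2 reached from -0.41 to 1.47. Their median was -0.28, against -0.01 over the 8916 genes tested. In edgeR 0 of these genes were called (0%) and 3.52% had an unadjusted p below 0.05, while none of the 4 did. DESeq2 called 5 genes but gave 8297 of the 8916 no adjusted p, so its count covers fewer genes.

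In the NAc all 9 could be tested. Foxp2 was -0.53 ± 0.25 and Bcl11b -0.49 ± 0.23 on the log2 scale, with unadjusted p-values of 0.0366 and 0.039 and an adjusted p of 1 each in edgeR. The other 7 ranged from -0.61 ± 0.64 for Isl1 to 0.33 ± 0.45 for Rarb, with Foxp1 at -0.11 ± 0.20, Meis2 at -0.16 ± 0.19 and Six3 at -0.09 ± 0.25. The median of the 9 genes was -0.24 against -0.01 over 10141 genes. Of these, 2.04% reached an unadjusted p below 0.05, 1.06% with a lower level after mCRS, and 0.00986% (1 gene, Ttr of the choroid plexus list) passed the adjusted threshold. The NAc CTR and NAc mCRS ranges overlapped for every one of the 9 genes. Without NAc CTR 7 and NAc mCRS 10, Foxp2 was -0.55 and Bcl11b -0.58, with unadjusted p-values of 0.0332 and 0.00468 and an adjusted p of 1 in edgeR, and no gene was called. NAc mCRS 10 held the highest Isl1 level of its group, 121 CPM against at most 52.5 CPM in the others, and without both libraries Isl1 was -1.02 ± 0.67 and Ebf1 -0.016 ± 0.84, in place of -0.24 ± 0.83.

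The effect of mCRS was then compared between regions in 1 model, as the PFC effect minus the NAc effect. None of the 9 genes passed (0.00907% of 11025 genes did, and 3.09% had an unadjusted p below 0.05). Foxp2 had the smallest p of the 9, with a difference of 1.04 ± 0.49 on the log2 scale (unadjusted p 0.0371, adjusted p 1 in edgeR) and a 95% interval from 0.08 to 2.0. Ebf1 followed with -2.79 ± 1.41 (unadjusted p 0.0514, adjusted p 1 in edgeR), and Six3 had 1.31 ± 0.81. Isl1, Rarb, Ebf1, Six3 and Zfp503 had failed the filter for mCRS in the PFC. They were tested here only because this filter was run over all 62 libraries, so their PFC effects rest on few counts. For Ebf1, 343 of 352 PFC CTR counts came from 4 libraries, and PFC mCRS held 37 counts. The Foxp2 differences between regions in CTR and in mCRS mice were thus not told apart after adjustment.

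**Figure D3:**
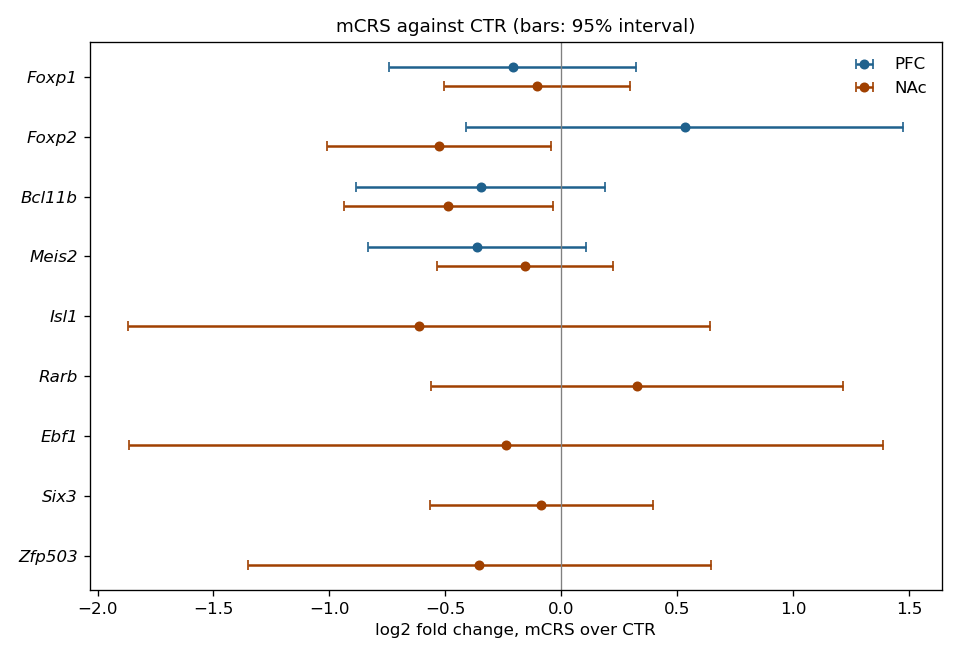
Log2 fold change of mCRS over CTR for each gene in both regions (blue, PFC, and brown, NAc), with 95% intervals of the fold change. No value passed the adjusted threshold, Foxp2 and Bcl11b in the NAc have intervals just below 0, and 5 genes have no PFC value because they failed the filter there.

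Within the NAc, the levels of 4 of the 9 genes were correlated with the amount of striatal marker RNA. After subtraction of the group means, the log2 CPM of each gene was correlated over 32 NAc libraries with the mean log2 CPM of the 20 striatal markers, and the same was done for 4 genes over 30 PFC libraries, in all 13 relations with two-sided permutation tests within groups. Foxp1 had a Pearson r of 0.738 (p 9e-05, adjusted 0.00117, permutation) and a Spearman rho of 0.532 (adjusted p 0.024, permutation). Bcl11b had an r of 0.769 (p 0.00073, adjusted 0.00316, permutation) and Meis2 an r of 0.735 (p 0.0006, adjusted 0.00316, permutation), with rho of 0.495 and 0.473. For Rarb r was 0.426 (p 0.00212, adjusted 0.00689, permutation) and rho 0.475. The other 5 genes had r between -0.140 for Ebf1 and 0.182 for Six3 and did not pass. Genes outside the 9 were not put through this test, so the share of all genes that would pass is not known. The count of 4 can therefore not be read as particular to these genes.

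The calls of Bcl11b, Meis2 and Rarb depended on NAc CTR 7. With NAc CTR 7 alone left out, a choice made after seeing the data, r was 0.551 for Foxp1 (adjusted p 0.0224, permutation), 0.402 for Bcl11b, 0.433 for Meis2 and 0.426 for Rarb, of which only Foxp1 passed, and no rho passed (lowest adjusted p 0.0936, permutation). Without the 2 libraries farthest from the median marker level, r was 0.519 for Foxp1, 0.381 for Bcl11b, 0.382 for Meis2 and 0.396 for Rarb. Without NAc CTR 7 and NAc mCRS 10, Foxp1 had an r of 0.559 (adjusted p 0.019, permutation) and a rho of 0.487 (adjusted p 0.102, permutation), and Bcl11b (0.419), Meis2 (0.422) and Rarb (0.428) had an adjusted p of 0.0774 by permutation. No relation passed in the PFC, where r ran from -0.088 for Foxp2 to 0.299 for Foxp1. With the hypothalamus markers in place of the striatal ones, chosen after seeing the data, r in the NAc was -0.532 for Meis2, -0.528 for Bcl11b and -0.458 for Foxp1 (adjusted p over 9 relations 0.0146, 0.0146 and 0.0351, permutation), and no rho passed (lowest adjusted p 0.0697, permutation). These fell to -0.335, -0.344 and -0.276 without the same 2 libraries, and none then passed.

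In NAc CTR 7 itself the 9 genes parted. Bcl11b stood at 6.15%, Meis2 at 16.2%, Foxp1 at 18.2% and Rarb at 22.02% of the median of the other 15 NAc CTR libraries, the first 3 of them below all 15. Foxp2 stood at 50.4%. Six3 (285 counts, 90.3% of that median), Zfp503 (149 counts, 107%) and Isl1 (84 counts, 117%) were within the range of the other libraries. Ebf1 was above all 15, at 37.4 CPM. Of the 20 striatal markers, 18 were below all 15 other libraries there, with Drd1 at 0.252% and Penk at 7.45% of their medians. Of the 6 hypothalamus markers counted, Oxt, Avp, Trh, Gal and Nkx2-1 were above all 15. The remaining marker, Cartpt, stood at 104% of the median, with 7 of the 15 above it.

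**Figure D4:**
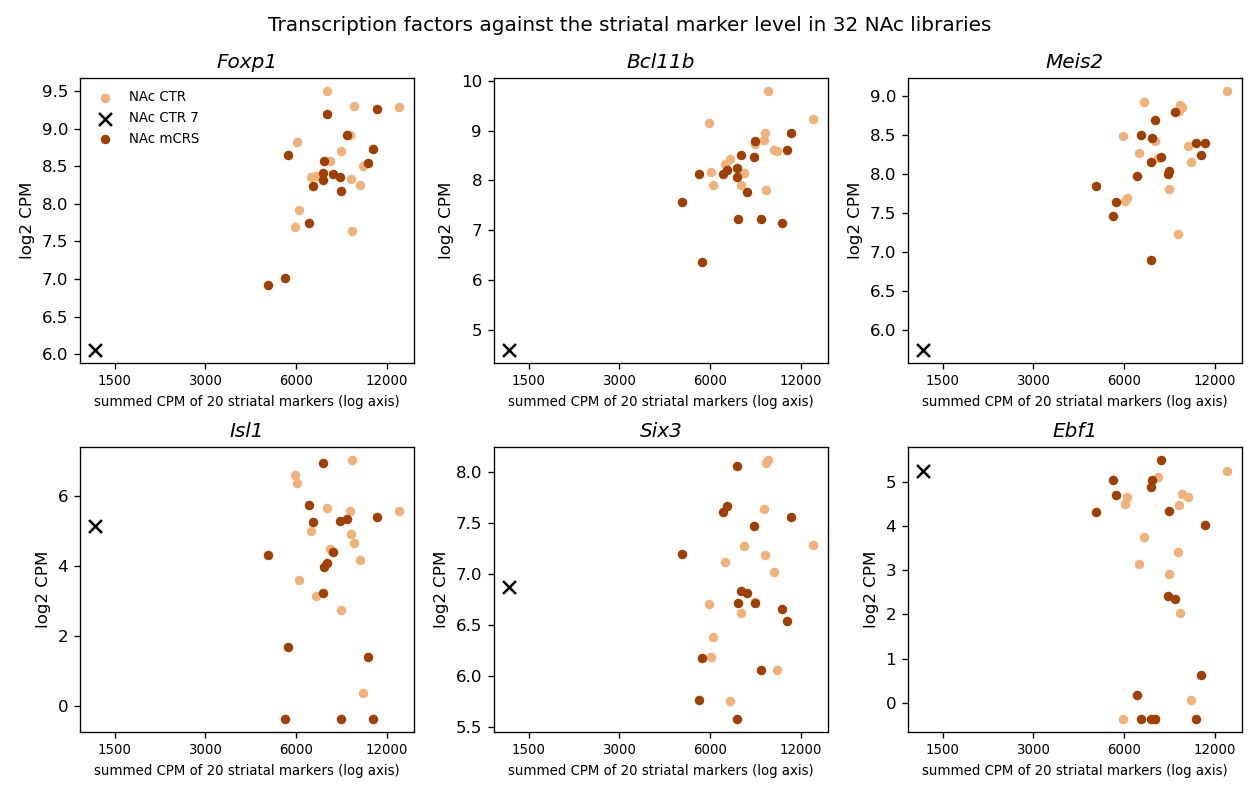
Log2 CPM of 6 of the genes against the summed CPM of the 20 striatal markers (log axis) in the 32 NAc libraries, with NAc CTR 7 as a cross at 1288 CPM. Foxp1, Bcl11b and Meis2 are low in that library, whereas Isl1, Six3 and Ebf1 are not.

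The genes whose levels were most like those of each factor over all 62 libraries were sought among 11025 genes by Pearson r of log2 CPM. Such r values reflect the regional difference as well as the variation within it, and depth is shared by all genes of a library. Six3 was closest to Gad2 (0.878), Penk (0.870) and Tac1 (0.850), a GABA synthesis enzyme and the neuropeptide precursors of the indirect and direct pathways. Zfp503 was closest to Gpr101 (0.737), Penk (0.720) and Rasd2 (0.702), Isl1 to Gad2 (0.728), Dlk1 (0.719) and Adcy5 (0.715), and Rarb to Ptpn5 (0.705), Adcy5 (0.674) and Penk (0.644). The more widely expressed factors were closest to Phactr1 (0.711), Rasl10b (0.656) and Cpne5 (0.652) for Foxp1, to Caln1 (0.698), Pcp4l1 (0.688) and Penk (0.655) for Bcl11b, and to Kcnip2 (0.700), Sh2d5 (0.654) and Scn4b (0.645) for Meis2. For Foxp2 they were Dock10 (0.655), Gad2 (0.640) and Rasgrp2 (0.640). Ebf1 had the lowest values, with Ngfr (0.568), Gaa (0.557) and Col11a1 (0.544).

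All 9 genes are protein coding. Their positions follow GRCm38 with the GENCODE M21 annotation. Foxp1 spans chr6:98925338-99522721 (minus strand) and Foxp2 chr6:14901349-15441977 (plus), Bcl11b chr12:107910403-108003602 (minus), Meis2 chr2:115863064-116065839 (minus) and Isl1 chr13:116298281-116309689 (minus). Rarb spans chr14:16430839-16819156 (minus), Zfp503 chr14:21983959-21989601 (minus), Ebf1 chr11:44617317-45008091 (plus) and Six3 chr17:85613608-85629302 (plus). The 3′ end of Rarb overlaps exons of Top2b on the opposite strand, which was counted too. Exons of Six3 overlap those of the antisense RNAs Six3os1 and Gm28528, and exons of Foxp1 those of Gm20696 and Gm49348 on its own strand. None of these is among the genes of the count table, so reads assigned to them cannot be seen. Whether counting used the strand was not stated, so reads of Rarb and Top2b might not be separable there.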

How the data were processed

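Libraries were sequenced by BRB-seq. The deposited values are raw read counts per gene: the authors demultiplexed the reads, aligned them to GRCm38 (mm10) with STAR and counted uniquely mapped reads with HTSeq (0.9.1 per the labels). Molecular identifiers were not described, so PCR copies may be counted. The authors left 2 PFC samples out for poor quality. Symbols were matched for 11120 of 11121 identifiers. Counts were analysed with edgeR 4.0.16 in R 4.3.3 (TMM normalization, filterByExpr, quasi-likelihood test), with Benjamini-Hochberg adjustment over all genes tested and a threshold of 0.05. Regions were compared within CTR and within mCRS mice, treatments within each region, and the difference between regions in the effect of mCRS over all 62 libraries. CPM values use TMM over all 62 libraries, and log2 CPM a prior count of 2. DESeq2 1.42.0, other normalizations and filters, covariates, thinned counts and fits without single libraries (on the same genes) were alternatives. Correlations used 100000 permutations. By the paper's methods, PFC and NAc were both dissected from the animals of each group. The labels do not tie PFC to NAc libraries of 1 mouse, so regions were treated as independent. The SEs and p-values between regions therefore take no account of libraries that share a mouse. The code was tested on simulated data. The 9 genes and all gene lists were chosen with earlier results of these data known. Named genes were all 9 members, and of each other list those with the smallest p between regions in CTR mice (3, or 4 for family relatives and other ventral forebrain factors) and those called after mCRS. Tshz1, Rbbp4 and Trh were named after their values were seen. For each member the 3 genes outside the 9 members with the highest r were named.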

Additional observations from a re-analysis of the deposited data

How the results depend on the processing

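The PFC counts of Isl1, Ebf1, Zfp503, Rarb and Six3 sat in a few libraries, and these 5 genes had too few counts to be tested for mCRS in the PFC at this depth. Counts cover sampling and PCR copies together. The cause of the changes below was not tested. With libraries numbered 1 to 8 only, 3 of the 9 genes were higher in the NAc of CTR mice (192 genes called in all) and 3 in mCRS mice (213 in all). With those numbered 9 and above, 0 were in mCRS mice (300.0 genes called in all). The average over both treatments called 9 of the 9 genes and 1249 in all, and 9 and 1229 without NAc CTR 7 and NAc mCRS 10. Leaving out 1 library gave 5 to 7 of the 9 genes in CTR mice (585 to 662 in all) and 4 to 6 in mCRS mice (554 to 624 in all). No alternative called any of the 9 genes for mCRS or its difference between regions. DESeq2 could not do so in the PFC, where it gave the 4 genes tested no adjusted p.

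Over all genes, mCRS in the PFC called 1 gene with no filter on low counts or with numbers 1 to 8, 5 with DESeq2 or with all 62 libraries in one fit, and 0 to 2 when 1 library was left out. DESeq2 gave 8297 of the 8916 genes no adjusted p in that comparison. mCRS in the NAc called 2 genes with no filter or all 62 libraries in one fit. It called 0 with library size, striatal markers or hypothalamus markers as covariate, with numbers 1 to 8, with DESeq2 and without NAc CTR 7 and NAc mCRS 10, and 0 to 1 without 1 library. The difference between regions called 0 genes with the stricter filter of 10 counts or with either set of numbers, 2 with thinned counts, and 1 to 6 without 1 library.

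Several uncalled values changed sign. With numbers 9 and above, Bcl11b in the PFC was 0.27 and Isl1 in the NAc 0.97 on the log2 scale, mCRS over CTR. In the NAc Rarb was -0.36 with numbers 1 to 8, Ebf1 was 0.022 with library size as covariate, and Six3 ranged from -0.19 to 0.018 without 1 library. In the difference between regions, numbers 1 to 8 gave -0.46 for Bcl11b, 0.29 for Isl1, 0.15 for Rarb, -0.06 for Six3 and -4.81 for Zfp503, and numbers 9 and above 0.0087 for Foxp1 and 1.42 for Isl1. Zfp503 was -0.0057 with thinned counts, and Isl1 0.04 without NAc CTR 7 and NAc mCRS 10. Without 1 library the range was -1.65 to 1.09 for Isl1, -1.63 to 2.77 for Zfp503 and -0.074 to 0.22 for Bcl11b. Of the relations with the striatal markers, 4 passed by permutation in the main setting, 2 with numbers 9 and above, 1 without NAc CTR 7 and 1 without NAc CTR 7 and NAc mCRS 10. With numbers 1 to 8, r in the PFC was 0.077 for Foxp2. With numbers 9 and above, r was -0.058 for Foxp1 and -0.094 for Bcl11b in the PFC, and 0.216 for Isl1 and 0.037 for Ebf1 in the NAc.

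Same-numbered PFC and NAc libraries had a correlation of deviations of at most 0.0246 in CTR mice and 0.0203 in mCRS mice. No pair known to come from 1 mouse was available for comparison, so these values cannot show whether the numbers pair the libraries. With the replicate number as a block, 5 of the 9 genes were called in CTR mice, 6 in mCRS mice and 0 for mCRS or its difference between regions. Over all genes the block gave 610.0 and 588 calls between regions, 1 for mCRS in the PFC, 0 in the NAc and 0 for the difference. Under the block, Rarb after mCRS in the NAc was -0.12, and in the difference between regions Bcl11b was -0.043, Isl1 1.10 and Ebf1 0.49.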
